A study of Homo sapiens with 346 samples.

Results

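Single live cells of the 2 cell lines of a methanol fixation study were set against each other, gene by gene: cells labelled HepG2 and HCT-116 cells. HCT-116 was derived from a carcinoma of the human colon, and HepG2 is known to derive from a human liver tumour. The members are all columns of live cells in the 2 gene tables except 1 HepG2 column whose values equal those of a fixed column, which left 67 live HepG2-labelled and 91 live HCT-116 cells of the 334 columns of cells in the series. The comparison ran over the 26894 genes listed in both tables. Both lines were grown in the same medium with fetal bovine serum, no agent was given to either, and no allele was changed. The other cells of the series had been fixed in 80% methanol and stored for 1 week before their libraries were made with Smart-seq2, which copies polyadenylated RNA of 1 cell into full-length cDNA.

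Every sample is a single cell whose culture is not named, so a line counts as 1 sample and its cells are not replicates. The HepG2 work was done in 2 experiments and the HCT-116 work in 1, and the labels do not tell the HepG2 experiments apart. Line and library batch therefore cannot be told apart, no p-value is given, and SDs are over cells. Values are TPM per gene, transcripts scaled to a fixed total per cell, which are divided by transcript length and can be compared between genes. The difference of a gene is the mean of log2(TPM + 1) over the HepG2-labelled cells minus that over the HCT-116 cells, and a difference of 2, here called 4-fold, is the limit used for counts. This scale understates the change of genes near 0 TPM. It can also exceed the ratio of mean TPM where cells of a line vary widely. CAV1, for example, averaged 206 TPM in HCT-116 and 84.7 TPM in HepG2-labelled cells but had a difference of -2.90. Below, a value alone in parentheses after a gene, or the last value there, is its difference on this log2 scale, and a gene that ran over 3 values had its lowest, median and highest cell at these TPM.

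Cultured carcinoma lines usually keep parts of the gene program of their tissue of origin. Luminal cells of the breast are known for the transcription factors GATA3, FOXA1 and ESR1, the estrogen receptor, and for secretory proteins such as the anterior gradient and trefoil proteins. Hepatocytes are known for plasma proteins such as albumin, apolipoproteins and fibrinogen under factors such as HNF4A. Intestinal epithelium is known for the factor CDX2 and for villin and mucins. These programs were used to check the labels, with gene lists chosen when earlier results of these data were known. The data went against the label HepG2: the markers that define hepatocytes were at or near 0 TPM and those of luminal breast epithelium were high. The cells are called HepG2-labelled throughout.

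Total reads per cell had a median of 2.4 M (1.5 to 3.7) in HepG2-labelled and of 2.5 M (0.7 to 5.3) in HCT-116 cells. HepG2-labelled cells had 13915 ± 1048 genes above 0 TPM and HCT-116 cells 12029 ± 919. The 18S ribosomal RNA (RNA18S5) took 5.58% of all TPM in HepG2-labelled and 25.5% in HCT-116 cells on average. In the setting called ribosomal RNA left out, that RNA was dropped and the other listed genes were rescaled to a fixed total per cell. The median difference of genes with a mean of 5 TPM or more moved from 0.03 (7579 genes) to -0.11 (7575 genes) there. This move covers both steps, which were not told apart. The listed genes summed to 756507 to 954258 TPM in a HepG2-labelled cell and to at least 983524 TPM in an HCT-116 cell. One HepG2-labelled cell stood apart, with 20.5% of its reads assigned to transcripts against 51.1% or more in the others, 8950 genes above 0 TPM and 712 TPM of 18S RNA. That cell had 170.98 TPM of GATA3, 25.6 TPM of ESR1 and 0 TPM of LDHB, and the counts of genes past 4-fold without it are given below.

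Of the 26894 genes, 550 (2.05%) were at least 4-fold higher in HepG2-labelled cells and 508 (1.89%) were at least 4-fold higher in HCT-116 cells. Without the cell that stood apart these counts were 547 and 498. The median difference over all genes was 0.03. A set of 13 genes averaged 100 TPM or more in HepG2-labelled cells and under 1 TPM in HCT-116 cells, and 12 genes showed the opposite pattern. A stricter description is a gene whose lowest cell of 1 line lies above the highest cell of the other: 25 genes (0.093%) were separated in this way toward HepG2-labelled cells and 31 (0.115%) toward HCT-116 cells.

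**Figure D1:**
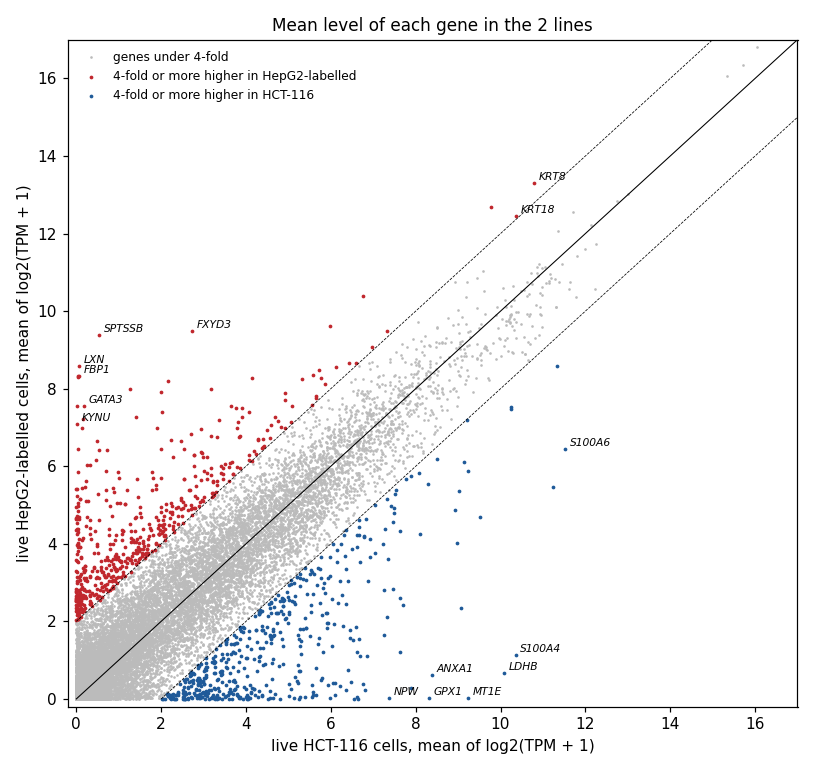
Mean of log2(TPM + 1) over 91 live HCT-116 cells (x axis) against that over 67 live HepG2-labelled cells (y axis), 1 point per gene, with red and blue points at or past a difference of 2 (dashed lines). The red points at the left edge and the blue points at the bottom edge, such as SPTSSB and LDHB, are high in 1 line and near 0 in the other, while most genes lie between the dashed lines.

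With antisense, noncoding and placeholder names left out, the genes with the largest differences toward HepG2-labelled cells were SPTSSB, LXN, S100P, FBP1 and AGR2. SPTSSB, a small subunit of the enzyme that starts sphingolipid synthesis, lies at chr3:161344798-161371517 (GRCh38.p14). Its lowest, median and highest values were 66.995, 645 and 2170.0 TPM in HepG2-labelled cells (795 ± 440.0, mean ± SD) and 0, 0 and 14.9 TPM in HCT-116 cells (1.24 ± 3.03), a difference of 8.84. LXN, an inhibitor of carboxypeptidases at chr3:158666414-158672648, ran over 41.8, 420.4 and 2538 TPM against 0, 0 and 5.11 TPM, a difference of 8.52. For neither gene did the lowest HepG2-labelled cell fall within the range of the HCT-116 cells. S100P, a calcium-binding protein, averaged 581 ± 627 TPM against 0.0592 ± 0.565 TPM, and its lowest HepG2-labelled cell at 1.81 TPM lay below the highest HCT-116 cell at 5.39 TPM. FBP1, the fructose bisphosphatase of gluconeogenesis, held 106.3, 345 and 611 TPM against 0, 0 and 4.29 TPM and was among the least variable of these genes. The other leading genes were GATA3 and AGR2, described with the luminal genes, KYNU (7.07), a kynureninase of tryptophan breakdown, GSTM3 (7.05), a glutathione transferase, FXYD3 (6.75), a regulator of the sodium pump, CD24 (6.73), a surface glycoprotein, BAMBI (6.18), a decoy receptor of the TGF-beta family, CLIC3 (6.03), BCAS3 (5.94), ANXA9 (5.90) and STARD10 (5.86), a lipid transfer protein.

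In the opposite direction the largest differences were those of LDHB, S100A4, MT1E, GPX1 and ANXA1. LDHB, a subunit of lactate dehydrogenase at chr12:21635342-21657842, had its lowest, median and highest cells at 476, 1123 and 1793 TPM in HCT-116 and at 0, 0 and 25.3 TPM in HepG2-labelled cells, a difference of -9.41. S100A4, a calcium-binding protein at chr1:153543621-153545806, ran over 108.3, 1633 and 5817 TPM against 0, 0 and 47.3 TPM, a difference of -9.23. Both genes separated all cells of the lines. MT1E, a metallothionein that shares sequence with its near-identical paralogs and is therefore uncertain as a single gene, averaged 685 ± 357 TPM against 0.0222 ± 0.182 TPM. GPX1, the glutathione peroxidase of the cytosol, exceeded 1 TPM in 1 of 67 (1.49%, 0.0378 to 8.04) HepG2-labelled cells, with the exact Clopper-Pearson 95% interval in percent, and averaged 330.4 ± 89.3 TPM in HCT-116. These intervals cover counting error only. ANXA1, an annexin, averaged 378 ± 180.8 TPM against 1.44 ± 3.76 TPM. The remaining leading genes were TPM2 (-7.62), a tropomyosin, NPW (-7.36), a neuropeptide, CKB (-6.72), the brain creatine kinase, PSAT1 (-6.63) of serine synthesis, CST6 (-6.56), a cystatin, CNN3 (-6.55), a calponin, MAGEA3 (-6.55), a cancer-testis antigen that has near-identical paralogs, ESRG (-6.44) and AKAP12 (-6.14), a scaffold of protein kinase A.

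For reference, the 250 bases before the start of the 2 genes with the largest difference in each direction are shown (RefSeq, GRCh38.p14, strand of the gene), with the letters TATAAA of a TATA box, or TTTATA on the opposite strand, in capitals. The letters were chosen after the values were seen.
SPTSSB, chr3:161371518-161371767, minus strand: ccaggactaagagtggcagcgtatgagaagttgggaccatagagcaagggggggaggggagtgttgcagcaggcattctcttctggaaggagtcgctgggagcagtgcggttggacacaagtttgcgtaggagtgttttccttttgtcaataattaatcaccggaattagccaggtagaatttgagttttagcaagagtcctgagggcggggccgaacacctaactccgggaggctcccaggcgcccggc
LXN, chr3:158672649-158672898, minus strand: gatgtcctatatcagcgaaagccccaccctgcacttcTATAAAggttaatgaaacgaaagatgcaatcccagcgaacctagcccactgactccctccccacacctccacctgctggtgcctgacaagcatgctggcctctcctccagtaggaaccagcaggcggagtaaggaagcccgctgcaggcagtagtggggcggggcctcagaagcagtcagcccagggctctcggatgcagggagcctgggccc
LDHB, chr12:21657843-21658092, minus strand: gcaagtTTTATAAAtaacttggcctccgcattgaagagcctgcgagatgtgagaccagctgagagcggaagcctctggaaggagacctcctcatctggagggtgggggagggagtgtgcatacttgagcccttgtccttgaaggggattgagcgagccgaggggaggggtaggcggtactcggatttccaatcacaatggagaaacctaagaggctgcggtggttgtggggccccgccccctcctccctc
S100A4, chr1:153545807-153546056, minus strand: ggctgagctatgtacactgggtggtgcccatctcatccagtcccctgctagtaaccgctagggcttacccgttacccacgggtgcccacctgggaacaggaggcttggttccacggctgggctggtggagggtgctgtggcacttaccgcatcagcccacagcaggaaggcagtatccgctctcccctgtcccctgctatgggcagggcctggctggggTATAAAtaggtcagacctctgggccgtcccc
S100A4 held the letters close to the start, at position -31, and LXN held them at -213. In LDHB both spellings overlap in 1 run at the far end of the window, and SPTSSB held neither. Of the 30 leading genes 26 had an entry, and 7 of these 26 held TATAAA on either strand, against 11.1% of 27305 RefSeq promoters of the same length. A match is a description of the letters and not a site.

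Luminal breast genes formed the list with the highest median difference, except with the filter on low values, where the urothelium list was higher (3.03 against 2.72). Of its 19 members 15 were listed for both lines, and 9 of these (60%, against 2.05% of all genes) were at least 4-fold higher in HepG2-labelled cells and 0 in HCT-116 cells, with a median difference of 2.70 against 0.03 over all genes. For all list counts that follow, higher means at least 4-fold higher. The shares over all genes are 2.05% toward HepG2-labelled and 1.89% toward HCT-116 cells. These shares include many genes near 0 TPM, which can hardly reach 4-fold on this scale. The filter on low values kept 16582 genes, which held all genes past 4-fold. For lists of expressed genes the shares over all genes are therefore a low reference. GATA3, at chr10:8045333-8075198, ran over 25.6, 198 and 512 TPM (lowest, median and highest cell) against 0, 0 and 5.65 TPM, a difference of 7.35. ESR1, at chr6:151656672-152129619, ran over 6.05, 46.2 and 94.3 TPM against 0, 0.879 and 2.40 TPM, a difference of 4.58. All cells of the lines were apart for both factors. XBP1, a factor of the secretory pathway at chr22:28794560-28800569, averaged 242 ± 170.1 TPM against 21.8 ± 18.1 TPM (3.60), and its ranges overlapped since the highest HCT-116 cell was at 75.3 TPM and the lowest HepG2-labelled cell at 9.26 TPM. AGR2, a protein disulfide isomerase, averaged 507 ± 604 TPM and exceeded 1 TPM in 64 of 67 (95.5%, 87.5 to 99.1) HepG2-labelled cells, against 0 of 91 (0%, 0 to 3.97) HCT-116 cells. CA12, a carbonic anhydrase of the cell surface (5.71), SCUBE2 (3.29), FOXA1 (2.74), TRPS1 (2.70) and MLPH (2.42) completed the members past 4-fold. FOXA1 and TRPS1 were low in absolute terms, at 7.64 ± 5.58 and 6.79 ± 4.26 TPM, and SCUBE2 was at 0 TPM in all HCT-116 cells.

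The members short of 4-fold were PRLR, the prolactin receptor (4.37 against 0.00325 TPM), MYB (2.76 against 0.54), SLC39A6, a zinc transporter (105.9 against 42.4), PGR, the progesterone receptor (1.43 against 0.000628), ANKRD30A (both under 0.01 TPM) and TBX3 (0.267 against 1.14). The progesterone receptor exceeded 1 TPM in 28 of 67 (41.8%, 29.8 to 54.5) HepG2-labelled cells. Another 4 members, TFF1, AGR3, SPDEF and TFF3, were listed only in the HepG2 table, where they averaged 2066 ± 3373, 70.3 ± 127.97, 62.2 ± 62.2 and 34.3 ± 58.2 TPM. TFF1, a secreted trefoil protein, had its lowest, median and highest cells at 0, 607 and 18731 TPM, so single cells differed widely. Summed over the 15 members listed for both lines, luminal breast genes took 276 to 3660.4 TPM per HepG2-labelled cell (median 1237) and 31.1 to 202 TPM per HCT-116 cell (median 87.9), with no overlap between the lines.

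Genes known to respond to estrogen followed in part. Of 16 listed in both tables, 5 were at least 4-fold higher in HepG2-labelled cells and 1 in HCT-116 cells (median 1.24). The 5 were CXCL12, a chemokine (56.7 ± 83.7 against 0.0282 ± 0.12 TPM, 4.35), OLFM1 (3.54), GREB1 (20.8 ± 15.4 against 0.591 ± 0.967 TPM, 3.46), the receptor RET (2.66) and RAB31 (2.02). AREG, the growth factor amphiregulin, was the exception at 134.4 ± 161.2 TPM in HCT-116 and 14.5 ± 45.2 TPM in HepG2-labelled cells (-4.08). The count toward HepG2-labelled cells was 4 with ribosomal RNA left out, in fixed cells and without the cell that stood apart. It was 6 by the ratio of mean TPM and 8 with a pseudocount of 0.1 TPM. The 16 genes summed to 138.6 to 873.2 TPM per HepG2-labelled cell (median 411.7) and 148.6 to 1252.8 TPM per HCT-116 cell (median 349), so the ranges overlapped.

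Hepatocyte genes were at or near 0 TPM in both lines. Of 20 members 9 were listed in both tables, 0 were past 4-fold in either direction, and the median difference was 0.01. HNF4A averaged 0.00726 ± 0.026 TPM in HepG2-labelled and 0.115 ± 0.511 TPM in HCT-116 cells, and exceeded 1 TPM in 0 of 67 (0%, 0 to 5.36) HepG2-labelled cells. APOA1 averaged 0.0878 ± 0.446 TPM, FGB 0.0219 ± 0.0699 TPM, TF, the iron carrier transferrin, 0.0113 ± 0.0737 TPM and AHSG 0 TPM in HepG2-labelled cells. CYP3A4, a drug-metabolising enzyme, and TAT, a tyrosine aminotransferase, stayed below 1 TPM in all cells of both lines. SERPINA1 was the highest member, at 2.31 ± 6.09 TPM in HepG2-labelled cells and 0.629 ± 2.28 TPM in HCT-116 cells. TTR and APOC3, listed only in the HepG2 table, exceeded 1 TPM in 1 of 67 cells each. APOA2 and FGG are listed only in the HCT-116 table, and 7 members, ALB, APOB, APOH, FGA, AFP, RBP4 and HP, are in neither. The sum of the 9 hepatocyte markers listed for both lines was 0 to 36.1 TPM per HepG2-labelled cell (median 0.470) and 0 to 14.8 TPM per HCT-116 cell (median 0.158).

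Intestinal genes were also sparse in HCT-116 cells. Of 10 members listed in both tables, 1 was past 4-fold: CDX2, the intestinal homeobox factor, ran over 0, 7.14 and 22.7 TPM in HCT-116 and 0, 0 and 0.686 TPM in HepG2-labelled cells (-2.56), and exceeded 1 TPM in 73 of 91 (80.2%, 70.6 to 87.8) HCT-116 cells. In fixed cells its difference was -1.86, short of 4-fold. KRT20 exceeded 1 TPM in 10 of 91 (10.99%, 5.40 to 19.3) HCT-116 cells, with a highest value of 169.1 TPM, and was at 0 TPM in all HepG2-labelled cells. CDH17, MUC2, MEP1A and CDHR5 averaged under 0.2 TPM in both lines, while HNF4G (0.258 and 0.72 TPM) and EPHB2 (0.124 and 0.26) were low in both. CEACAM5 went the other way, at 7.43 ± 28.5 TPM in HepG2-labelled cells, of which 16 of 67 (23.9%, 14.3 to 35.9) exceeded 1 TPM, and 0.0808 ± 0.145 TPM in HCT-116. VIL1, LGALS4, ASCL2 and GUCY2C were listed only in the HepG2 table, at 0.0957, 0.26, 1.14 and 0.122 TPM. Of the other markers, GPA33 was listed only for HCT-116, at 0 TPM, and 5 were in neither table. The 10 markers listed for both lines summed to 0 to 210.5 TPM per HepG2-labelled cell (median 1.97) and 0 to 185.3 TPM per HCT-116 cell (median 9.57).

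**Figure D2:**
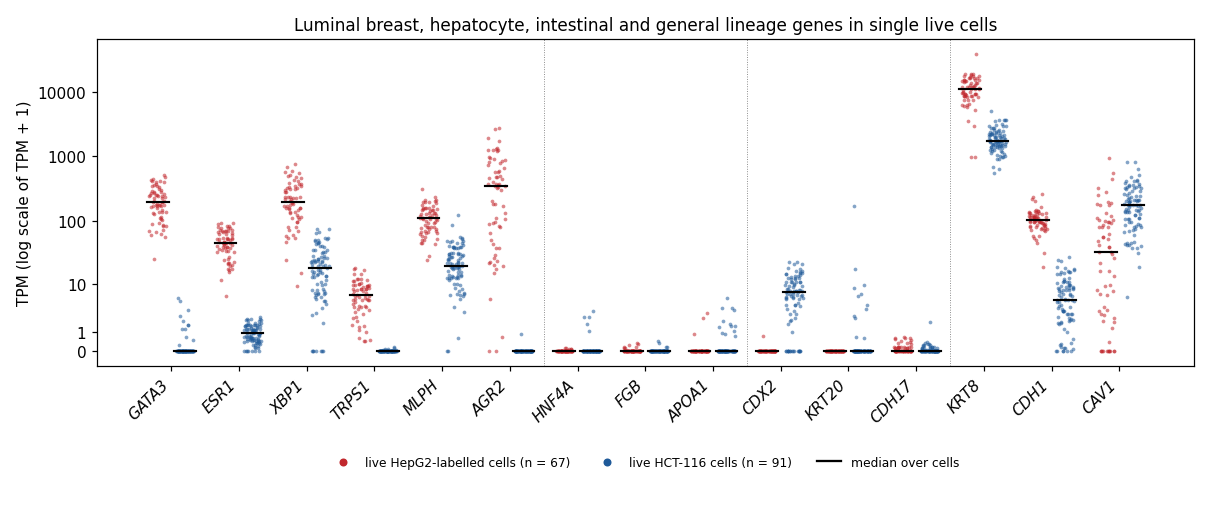
TPM (log scale of TPM + 1) of lineage genes in 67 live HepG2-labelled (red) and 91 live HCT-116 cells (blue), 1 point per cell, with a bar at the median and dotted lines between luminal breast, hepatocyte, intestinal and general genes. GATA3 and ESR1 separate all cells, the hepatocyte genes lie at or near 0 in both lines, CDX2 is above 1 TPM in 80.2% of HCT-116 cells, and CAV1 overlaps.

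General epithelial genes were expressed in both lines, and 6 of 15 members were at least 4-fold higher in HepG2-labelled cells (median 1.49), with 0 past 4-fold toward HCT-116. Of the 15 differences 13 were above 0. The count of 6 was 4 by the ratio of mean TPM and 5 with ribosomal RNA left out. CLDN3, a tight junction claudin (281 ± 115.6 against 17.02 ± 18.9 TPM, 4.83), and CDH1, the adhesion protein E-cadherin (108.4 ± 42.9 against 6.83 ± 6.07 TPM, 4.19), differed most. The keratins KRT8 (11532 ± 5449 against 1902 ± 776 TPM) and KRT18 (6414 ± 3237 against 1464 ± 764 TPM), which have many processed copies in the genome, and the factors GRHL2 (2.35) and ESRP2 (2.18) were also past 4-fold. EPCAM did not differ by 4-fold, at 236 ± 74.6 TPM in HepG2-labelled and 306 ± 121.8 TPM in HCT-116 cells, nor did KRT19 (2327 ± 1080.3 and 952 ± 699 TPM). Among 11 other keratins listed for both lines, 1 was past 4-fold, KRT80 (78.5 ± 135.3 against 4.86 ± 11.02 TPM, 4.18). By the ratio of mean TPM, 2 were past 4-fold toward HepG2-labelled and 1 toward HCT-116 cells.

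Mesenchymal genes leaned toward HCT-116: 4 of 11 were at least 4-fold higher there and 0 in HepG2-labelled cells (median -0.63). Besides S100A4 these were the caveolins CAV1 (206 ± 156.9 against 84.7 ± 149.7 TPM, -2.90) and CAV2 (-2.15), and SPARC, a matrix protein. The count was 2 by the ratio of mean TPM. CAV1 was not absent from HepG2-labelled cells, of which 55 of 67 (82.1%, 70.8 to 90.4) exceeded 1 TPM, and its ranges overlapped. SPARC exceeded 1 TPM in 30 of 91 (32.97%, 23.5 to 43.6) HCT-116 cells, with a highest value of 551 TPM, and in 0 HepG2-labelled cells. VIM, the defining intermediate filament of mesenchymal cells, was low in both, at 1.69 ± 4.09 and 5.72 ± 10.8 TPM. Of the 11 differences 8 were below 0 and 3 above. FN1 was on the side of HepG2-labelled cells, at 2.48 ± 3.23 against 0.422 ± 0.751 TPM in HCT-116 (0.95), short of 4-fold.

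Of the lists for other cell types, urothelium alone had members past 4-fold. The uroplakins UPK3B (120.4 ± 98.3 against 1.78 ± 4.15 TPM, 5.69) and UPK2 (99.6 ± 132.8 against 0.136 ± 0.725 TPM, 5.08) were higher in HepG2-labelled cells, 2 of 5 listed members. UPK3B has closely similar copies in the genome and is uncertain as a single gene. UPK3A, listed only in the HepG2 table, averaged 39.96 ± 76.1 TPM. The lists for stomach and lung, squamous, prostate, kidney tubule, pancreas, blood, and fibroblast and endothelial cells had 0 members past 4-fold. The protease TMPRSS2 of the prostate list, listed only in the HepG2 table, averaged 10.3 ± 10.6 TPM, and 0 other members of these lists reached a mean of 5 TPM in either line. The 6 blood cell markers listed for both lines summed to at most 79.9 TPM in a HepG2-labelled cell (median 0.680) and 42.4 TPM in an HCT-116 cell (median 2.08).

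Transcription factors differed in both directions, and those that are also luminal breast genes are counted in these lists again. Of the GATA, FOXA and HNF factors, which open chromatin and set endodermal and epithelial fates, 2 of 8 were past 4-fold, the luminal genes GATA3 and FOXA1. Among 35 nuclear receptors, ligand-controlled factors, 2 were higher in HepG2-labelled cells, ESR1 and NR2F2, and 3 in HCT-116 cells (median 0.07). NR2F2 ran over 5.32, 44.5 and 126.3 TPM in HepG2-labelled and 0, 3.30 and 12.5 TPM in HCT-116 cells (3.52), whereas its relative NR2F1 averaged 0.0647 ± 0.359 and 10.1 ± 9.11 TPM (-2.92). These related orphan receptors thus lay on opposite sides. NR1D1, a repressor of the circadian clock (-3.43), and NR2F6 (-3.27) were the other receptors higher in HCT-116.

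Homeobox cluster genes, which mark position along the body axis, had 2 of 30 members (6.67%, against 1.89% of all genes) past 4-fold toward HCT-116 and 0 toward HepG2-labelled cells. HOXA9 averaged 35.4 ± 27.1 TPM there and exceeded 1 TPM in 90 of 91 (98.9%, 94.03 to 99.97) cells, and it was at 0 TPM in all 67 HepG2-labelled cells. HOXA7 averaged 8.05 ± 5.96 against 0.485 ± 1.27 TPM (-2.37).

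Among 40 other epithelial transcription factors, 5 were higher in HepG2-labelled cells and 7 in HCT-116 cells (median -0.28). TFAP2C, an AP-2 factor, ran over 11.7, 40.6 and 113.2 TPM against 0, 0 and 16.2 TPM (4.67). GRHL3 (2.84), HES1, a target of Notch signalling (2.36), TBX2 (2.15) and MSX2 (2.05) were higher in the same cells, while MSX1 (-2.15) was higher in HCT-116. The ETS factors ETV5 (16.05 ± 10.7 against 0.118 ± 0.432 TPM, -3.68), ETV4 (16.4 ± 10.1 against 0.179 ± 0.658 TPM, -3.66) and EHF (-3.48) went toward HCT-116 together with TCF7L2, the effector of Wnt signalling (27.3 ± 14.97 against 3.01 ± 2.54 TPM, -2.89), SOX9 (-2.37) and ID1 (-2.02). ID1 was abundant in both lines, at 703 ± 386 and 295 ± 248 TPM.

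Glycolysis genes leaned toward HCT-116 as a list. Of 21 members 6 (28.6%, against 1.89% of all genes) were at least 4-fold higher in HCT-116 and 0 in HepG2-labelled cells (2.05% of all genes), 18 differences were below 0, and the median was -1.06. LDHB was the extreme member, and the related subunit LDHA averaged 966 ± 585 TPM in HCT-116 and 345 ± 159.3 TPM in HepG2-labelled cells (-1.50), short of 4-fold. The lactate carriers SLC16A1 (63.6 ± 25.4 against 6.59 ± 7.79 TPM, -3.68) and SLC16A3 (47.7 ± 29.2 against 4.38 ± 4.67 TPM, -3.55) followed, with the enolase ENO2 (-3.01), the aldolase ALDOC (-2.63) and the phosphofructokinase PFKM (-2.02). Summed glycolysis genes took 7919 to 44050 TPM per HCT-116 cell (median 12436) and 2532 to 13111 TPM per HepG2-labelled cell (median 8253), so the ranges overlapped.

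The enzymes of serine synthesis PSAT1, PHGDH and PSPH were past 4-fold toward HCT-116. PSAT1, the aminotransferase, ran over 1.69, 98.7 and 519 TPM in HCT-116 and 0, 0 and 0.353 TPM in HepG2-labelled cells (-6.63), and it exceeded 1 TPM in 0 of 67 HepG2-labelled cells. PHGDH, the dehydrogenase before it (60.03 ± 47.2 against 17.8 ± 23.8 TPM, -2.35), and PSPH, the phosphatase after it (34.3 ± 15.1 against 7.42 ± 6.34 TPM, -2.37), overlapped between the lines. TYMS, the thymidylate synthase of one-carbon metabolism, averaged 286 ± 146.2 TPM against 73.97 ± 52.9 TPM (-2.09), so that 4 of 15 members were past 4-fold toward HCT-116 and 0 toward HepG2-labelled cells (median -0.57). The count was 2 by the ratio of mean TPM, with PHGDH and TYMS short of 4-fold. TYMS is expressed with DNA replication, and the proliferation markers MKI67 and TOP2A exceeded 1 TPM in 80.6% and 92.5% of HepG2-labelled and in 80.2% and 79.1% of HCT-116 cells. Their part in the TYMS difference was not tested. Of 19 amino acid enzymes 2 were past 4-fold, ODC1 of polyamine synthesis (175.3 ± 88.2 against 19.5 ± 12.9 TPM, -3.24) and OAT, an ornithine aminotransferase (-2.04), both toward HCT-116. The count was 1 by the ratio of mean TPM, with paired cells, in fixed cells and without the cell that stood apart.

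Lipid synthesis genes were close in the lines as a list: 2 of 26 were higher in HepG2-labelled cells, 1 in HCT-116 cells, and the median was 0.08. The 2 were the sterol enzymes LSS (34.3 ± 18.03 against 8.36 ± 7.36 TPM, 2.18) and SQLE (86.995 ± 59.7 against 21.8 ± 16.4 TPM, 2.09), and the gene higher in HCT-116 was ACSL4, which activates polyunsaturated fatty acids (9.13 ± 6.24 against 0.536 ± 1.18 TPM, -2.63). LSS and SQLE were both short of 4-fold by the ratio of mean TPM, and SQLE was so also with ribosomal RNA left out, with paired cells and in fixed cells.

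Glutathione and detoxification genes split by member, with 3 of 33 higher in HepG2-labelled cells and 6 in HCT-116 cells (median -0.07). GSTM3 ran over 12.99, 159.9 and 492 TPM against 0, 0.0718 and 1.10 TPM and separated all cells in 1 direction, while GPX1 did so in the other. CYP1B1 (36.6 ± 37.6 against 0.497 ± 1.89 TPM, 4.43) and the aldo-keto reductase AKR1C3 (2.86) were also higher in HepG2-labelled cells. CYP24A1, which breaks down vitamin D (97.8 ± 83.5 against 0.828 ± 2.79 TPM, -5.57), the reductase AKR1B1 (-5.24), the aldehyde dehydrogenases ALDH1A3 (145.1 ± 138.5 against 4.70 ± 8.56 TPM, -4.86) and ALDH2 (-3.67), and UGT8 (-2.07) were higher in HCT-116. By the ratio of mean TPM, and in fixed cells, 5 members were past 4-fold toward HepG2-labelled cells. GSTP1, listed only in the HCT-116 table, averaged 510.4 ± 112.5 TPM with a lowest cell at 241 TPM.

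Of 22 genes of nucleotide salvage and mitochondrial carbon flow, 2 were higher in HepG2-labelled and 6 in HCT-116 cells (median -0.45). IDH2, the mitochondrial isocitrate dehydrogenase, averaged 345 ± 157.3 TPM against 23.2 ± 16.6 TPM (4.12), and PCK2, the mitochondrial PEP carboxykinase, 32.9 ± 21.8 against 13.2 ± 16.8 TPM (2.01). CKB ran over 108.1, 586 and 1328 TPM in HCT-116 and 0, 5.68 and 56.7 TPM in HepG2-labelled cells. CDA, a cytidine deaminase (-4.07), MTAP, which salvages methylthioadenosine (42.9 ± 20.6 against 1.90 ± 1.51 TPM, -3.89), UPP1 (-2.26) and the malic enzymes ME1 (-2.48) and ME2 (-2.51) were higher in HCT-116. The count toward HepG2-labelled cells was 1 by the ratio of mean TPM, with paired cells and with ribosomal RNA left out.

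**Figure D3:**
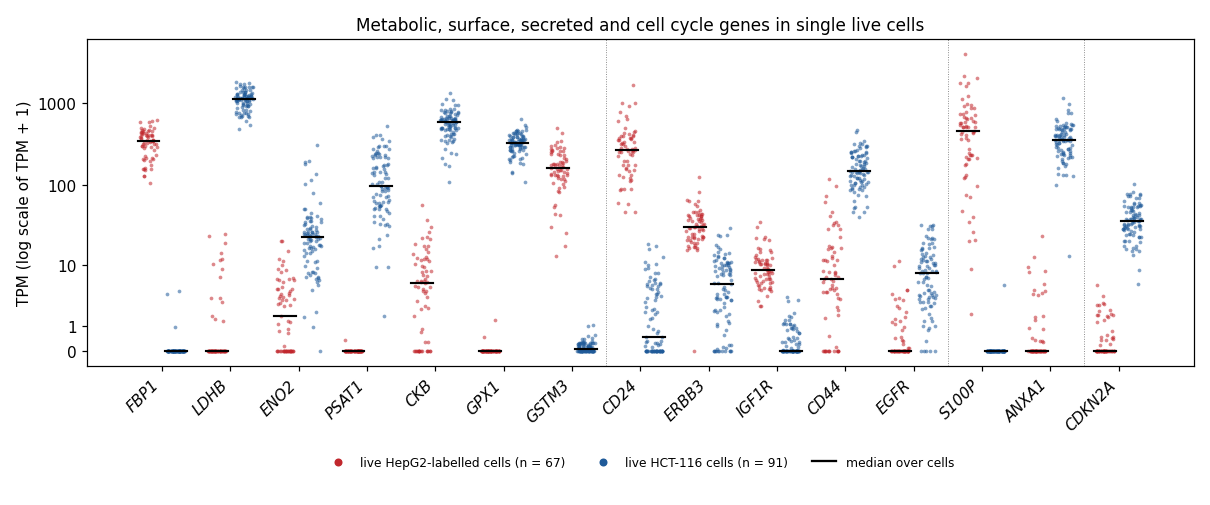
TPM (log scale of TPM + 1) of metabolic, surface, secreted and cell cycle genes in 67 live HepG2-labelled (red) and 91 live HCT-116 cells (blue), 1 point per cell, with a bar at the median. FBP1, LDHB, PSAT1, CKB, GPX1, GSTM3, CD24 and CDKN2A separate all cells of the lines, whereas ENO2, ERBB3, CD44 and EGFR overlap.

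Receptor tyrosine kinases at the cell surface differed in both directions, and 15 of 25 were past 4-fold in neither (median -0.14). Of the 25, 4 were higher in HepG2-labelled cells: IGF1R (10.1 ± 6.19 against 0.398 ± 0.714 TPM, 2.93), RET (16.2 ± 18.2 against 0.968 ± 1.73 TPM, 2.66), ERBB3 (34.4 ± 18.5 against 6.76 ± 6.30 TPM, 2.57) and EPHA4 (2.46). Another 6 were higher in HCT-116: EPHA2 (33.001 ± 27.005 against 3.33 ± 3.89 TPM, -2.98), FGFR4 (-2.76), MST1R (-2.41), EGFR (9.48 ± 8.35 against 0.911 ± 2.06 TPM, -2.35), MET, the receptor of hepatocyte growth factor (16.96 ± 9.50 against 3.66 ± 3.19 TPM, -2.11), and PTK7 (-2.07). In fixed cells 2 of the 6, FGFR4 (-2.16) and MET (-2.44), were past 4-fold, and EGFR (-1.75) and EPHA2 (-1.99) were short of it. The EGF receptor ligands AREG and EREG lay on the same side as EGFR. Among 12 integrins 1 was past 4-fold, ITGA6, at 6.65 ± 4.74 TPM in HCT-116 and 0.365 ± 0.855 TPM in HepG2-labelled cells (-2.33). With ribosomal RNA left out the count was 3.

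Other surface proteins also went both ways, with 4 of 50 higher in HepG2-labelled cells and 8 in HCT-116 cells (median 0.01). CD24 and CD44, a pair often used together to sort carcinoma cells, pointed in opposite directions. CD24 ran over 46.9, 271 and 1649.9 TPM in HepG2-labelled and 0, 0.495 and 18.6 TPM in HCT-116 cells without overlap (6.73). CD44, the hyaluronan receptor, ran over 40.3, 147.5 and 462 TPM in HCT-116 and 0, 6.47 and 118.6 TPM in HepG2-labelled cells with overlap (-4.44). TSPAN13 (3.43), CDH1 and CD47, which signals to phagocytes (55.8 ± 32.98 against 10.4 ± 5.83 TPM, 2.31), were higher in HepG2-labelled cells. PLAUR, the urokinase receptor (68.9 ± 56.7 against 3.03 ± 3.42 TPM, -4.16), tissue factor F3 (-2.80), the amino acid carrier SLC7A5 (-2.76), PROM1 (7.44 ± 6.07 TPM against 0 in all HepG2-labelled cells), TNFRSF21 (-2.30), PVR (-2.09) and the nucleotidase NT5E (-2.08) were higher in HCT-116. The counts were 7 and 5 by the ratio of mean TPM.

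Among the antigen presentation genes, the class I genes HLA-B (41.6 ± 22.2 against 7.79 ± 4.90 TPM, -2.34) and HLA-C (-2.05) were higher in HCT-116, and the class II gene HLA-DRB1 (33.9 ± 55.8 against 1.34 ± 3.14 TPM, 2.84) was higher in HepG2-labelled cells. HLA genes share sequence and vary between genomes, so these values are uncertain as those of single genes.

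Secreted factors leaned toward HCT-116, with 11 of 36 higher there, 3 higher in HepG2-labelled cells and a median of -0.70. By the ratio of mean TPM 5 were higher in HepG2-labelled cells. The 3 were S100P, BMP7 (9.10 ± 7.84 against 0.889 ± 1.76 TPM, 2.29) and TGFB2 (2.26). EREG, the growth factor epiregulin, ran over 0, 89.7 and 369 TPM in HCT-116 and 0, 0 and 0.477 TPM in HepG2-labelled cells (-6.002). The protease inhibitor SERPINE2 ran over 15.8, 72.5 and 362 TPM against 0, 0 and 10.1 TPM without overlap (-5.88), and the urokinase PLAU, ligand of PLAUR, averaged 115.6 ± 130.2 against 1.32 ± 4.998 TPM (-5.30). S100A6 (3299 ± 1825 against 153.02 ± 210.2 TPM), GDF15 (604 ± 723 against 39.5 ± 87.3 TPM), BMP4 (-3.96) and S100A2 (-3.24) completed the members named by the rule of size. BMP4 and BMP7, ligands of 1 family, thus lay on opposite sides.

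Of 16 caspase and chromosome 9 cell cycle genes, 2 were past 4-fold, both toward HCT-116. CDKN2A, the inhibitor locus at chr9:21967752-21995324, ran over 5.41, 36.8 and 104.8 TPM against 0, 0 and 5.26 TPM without overlap (-4.73). Of its neighbours, MTAP, at chr9:21802636-21941115, was also lower in HepG2-labelled cells, whereas the inhibitor CDKN2B, at chr9:22002903-22009313, averaged 3.42 ± 5.26 TPM there and 1.58 ± 3.15 TPM in HCT-116 (0.70, short of 4-fold). CASP4, an inflammatory caspase, averaged 16.04 against 2.80 TPM (-2.13), and was short of 4-fold with paired cells.

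**Figure D4:**
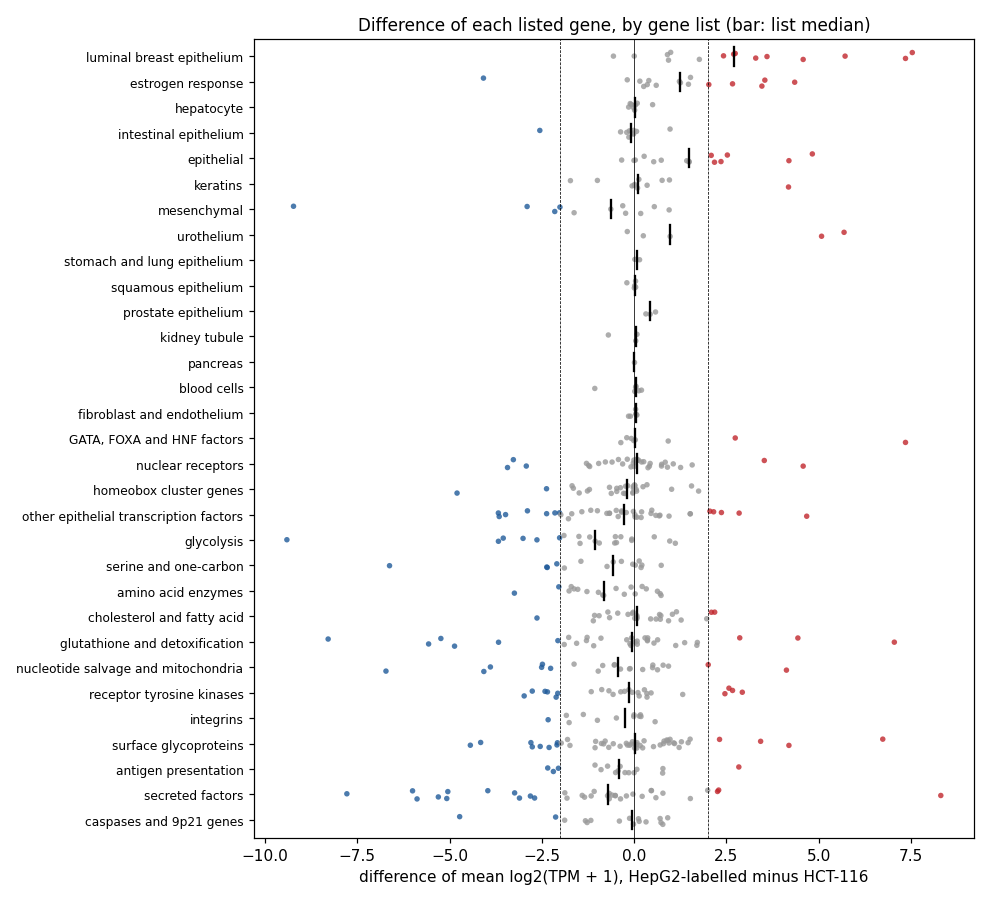
Difference of mean log2(TPM + 1) (x axis, HepG2-labelled minus HCT-116) of each listed gene in 31 of the 32 gene lists (1 list is not shown), with black bars at list medians, dashed lines at -2 and 2, and red and blue points past them. Luminal breast genes have the highest median (2.70) and glycolysis genes the lowest (-1.06), and hepatocyte genes lie near 0.

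The genes that separated all cells included members of the lists and genes outside them. Toward HepG2-labelled cells, the lists and the leading genes held SPTSSB, LXN, FBP1, GATA3, GSTM3, CD24, BCAS3, STARD10, ESR1 and TRPS1. Among the others, SULF2, a heparan sulfatase (54.7 ± 33.4 against 0.334 ± 1.07 TPM, 5.41), PYCARD, the adaptor of inflammasomes (5.23), NCOA3, a coactivator of nuclear receptors (112.9 ± 55.5 against 4.61 ± 3.43 TPM, 4.44), and CCDC170, the gene next to ESR1 (19.7 ± 12.01 against 0.103 ± 0.126 TPM, 3.97), were named after their values were seen. Toward HCT-116 cells, the others included the chromatin proteins HMGA1 (788 ± 291 against 28.2 ± 13.1 TPM, -4.82) and HMGA2 (18.9 ± 11.1 against 0.335 ± 0.414 TPM, -3.72), the RNA-binding protein IGF2BP2 (-3.94), moesin (MSN, 37.6 ± 16.1 against 0.0115 ± 0.0406 TPM, -5.11), the cytidine deaminase APOBEC3C (-5.97) and the melanoma antigen MAGEA2B (-5.25), a near-identical paralog of MAGEA3 and uncertain as a single gene. The 31 genes include MAGEA2, which was at 0 TPM in all HepG2-labelled cells but whose lowest HCT-116 cell held a trace of 9.90e-06 TPM, with 54.9% of HCT-116 cells above 1 TPM and a difference of -1.27, short of 4-fold.

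Cells of 1 line varied among themselves. The named genes past 4-fold were 56 toward HepG2-labelled and 80 toward HCT-116 cells. Of these, 67 exceeded 1 TPM in all cells of the higher line, 24 in under 90% of them and 6 in under 80%. These 6 were SPARC (32.97% of HCT-116 cells), AKR1C3 (61.2% of HepG2-labelled cells), TGFB2 (68.7% of HepG2-labelled cells), MSX1 (70.3% of HCT-116 cells), HLA-DRB1 (73.1% of HepG2-labelled cells) and CASP4 (76.9% of HCT-116 cells). Among the 23 named genes that were higher in HepG2-labelled cells with a mean of 100 TPM or more, the SD of log2(TPM + 1) over cells ran from 0.55 for BCAS3 and 0.59 for FBP1 to 1.92 for S100P and 2.65 for AGR2. Among 30 such genes in HCT-116, it ran from 0.40 for LDHB and 0.42 for GPX1 to 2.39 for AREG and 2.78 for GDF15.

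Cells fixed in methanol give the same comparison in 82 HepG2-labelled and 92 HCT-116 cells that are other cells than the live ones but share their lines, so line and batch cannot be told apart there either. Of the 550 genes higher in live HepG2-labelled cells, 550 also had a positive difference in fixed cells and 429 (78%) were past 4-fold there. Of the 508 genes higher in live HCT-116 cells, 506 had a negative difference and 374 (73.6%) were past 4-fold. Over all genes, 630 (2.34%) and 430 (1.60%) were past 4-fold in fixed cells. In addition, 6 fixed HepG2-labelled columns were each very similar to at least 1 other (Pearson r above 0.95), and without them the counts were 612 and 440. The 56 and 80 named genes past 4-fold all kept their direction in fixed cells, and 15 of them fell short of 4-fold there. GATA3 differed by 7.60, ESR1 by 3.90, XBP1 by 4.65 and LDHB by -9.32 in fixed cells. The largest shifts among named genes were those of UPK2, from 5.08 to 7.07, HLA-DRB1, from 2.84 to 4.80, SLC16A3, from -3.55 to -1.77, and CXCL12, from 4.35 to 2.73. CEACAM5, at 0.97 in live cells, passed 4-fold in fixed cells at 2.27.

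**Figure D5:**
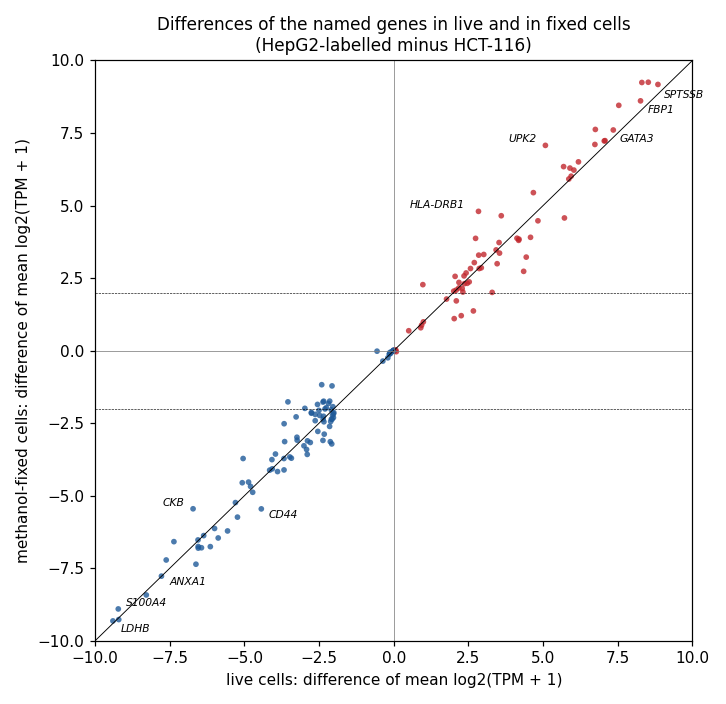
Difference of mean log2(TPM + 1) of the 160 named genes listed in both tables in live cells (x axis) and in fixed cells (y axis), HepG2-labelled minus HCT-116, with the line of equality and dashed lines at -2 and 2. Points lie along the line, and all named genes past 2 in live cells have the same sign in fixed cells.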

How the data were processed

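The authors checked reads with FastQC, quantified them with kallisto 0.46.0 on GRCh38, combined transcripts with tximport, kept cells with more than 4000 genes and deposited TPM per gene for each cell, in 1 table per line. The deposited transcript tables hold CPM, not divided by length, and were used only for total reads (from the step between values) and the assigned share. The other columns of both tables, those of fixed cells, served as an alternative. Column names give the treatment and not the number of a labelled sample, and 0 columns were left without a group. No cells were filtered and no doublets were called, since each library is 1 cell.

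Means, SDs and ranges over cells were computed from the deposited TPM with Python 3.11.15, numpy 2.4.6, pandas 2.3.3 and scipy 1.17.1, and plots were drawn with matplotlib 3.10.9. The pseudocount was 1 TPM. With 1 sample per line no test was run. Alternatives changed the pseudocount, the average, the scaling, ribosomal RNA, the fold limit, the cells and the genes listed. The computation was tested on simulated data. Members and the 32 gene lists were chosen with earlier results of these data known. Named genes are, per list, up to 8 members past 4-fold in each direction with a mean of at least 5 TPM in the higher line, plus the hepatocyte, luminal breast and intestinal members, and over all genes the 15 largest differences in each direction with a mean of at least 10 TPM. Genes with placeholder, antisense or noncoding RNA names and genes of the Y chromosome stayed out of the last group. Positions and sequences are from RefSeq (GRCh38.p14), matched by symbol first. Some genes of the lists are not reported here.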

Additional observations from a re-analysis of the deposited data

How the results depend on the processing

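The shares of genes past 4-fold, 2.05% toward HepG2-labelled and 1.89% toward HCT-116 cells, stayed within 1.5 times under several settings. These were the ratio of mean TPM, rescaling by the median ratio, ribosomal RNA left out and cells paired on total reads. Fixed cells, the cell that stood apart left out, and genes listed in either table were the others. In that last setting a gene absent from 1 table was taken as 0 TPM there. The shares moved by more with a pseudocount of 0.1 TPM (6.30% and 3.93%, or 1695 and 1056 genes), which gives more weight to genes near 0, with a limit of 1 on the log2 scale (7.84% and 6.27%) or with a limit of 3 (0.617% and 0.773%). The filter on low values kept 16582 genes and all of the 550 and 508 genes past 4-fold, so the shares over the genes kept are larger. The count of genes that separated all cells toward HCT-116, 31, was 62 with 40 pairs of cells, where fewer cells narrow the ranges, and 19 in fixed cells, where the cause was not tested. Leaving out the cell that stood apart, fixed cells without similar columns, and all settings for lists and separated genes were chosen after seeing the data. The 56 and 80 named genes past 4-fold kept their direction under all 9 settings tried for single genes, and from 0 (pseudocount, filter) to 19 (ratio of mean TPM) of them fell short of 4-fold. The share of calls toward HepG2-labelled cells was 52%, and it ran from 47.6% (ribosomal RNA left out) to 61.6% (pseudocount of 0.1 TPM). Shares of cells above 0 in place of 1 TPM lay outside the interval of the share above 1 TPM for 83 of 320 values. Of the differences of single genes 1313 stayed within 1 SD over cells and the rest moved by more, with 0 reversed, and of the counts within lists 51 changed by over 1.5 times and 525 did not. No paired analysis was possible because the result comes from no test, each line is 1 sample, and the columns carry no number that ties them to the labels' replicates. Depth limits the genes near 0 TPM, whose differences depend on the pseudocount.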

Other observations

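Genes listed in only 1 of the tables were left out of the main comparison, and their absence from the other table is no measured 0. Only the setting with genes listed in either table counted it as 0 TPM. Of 2657 genes listed only for HepG2, 43 averaged 10 TPM or more in live cells, and of 1912 listed only for HCT-116, 23 did. Besides the luminal genes, the HepG2 table alone held LDOC1 (104.8 ± 66.4 TPM), NPY1R, a receptor of neuropeptide Y (72.2 ± 101.2 TPM, above 1 TPM in 80.6% of cells), BATF (68.8 ± 37.6 TPM) and SHH, the hedgehog ligand (36.2 ± 95.7 TPM, above 1 TPM in 44.8% of cells). The HCT-116 table alone held GTSF1 (294 ± 84.2 TPM), the antigen MAGEB2 (121.8 ± 35.6 TPM), and a group of neighbours on chromosome 11, the olfactory receptors OR51B5 (104.4 ± 61.2 TPM) and OR51B4 (14.3 ± 12.8 TPM) and the embryonic globin HBE1 (81.3 ± 43.4 TPM).

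Differences also varied along the genome. For genes with a mean of 5 TPM or more over the lines, 98.2% had a position in RefSeq (GRCh38.p14), and windows of 10 Mb that held at least 20 of them were compared. The median difference was 0.5 or more in 31 windows, -0.5 or less in 21 and between these values in 90. The highest medians were 1.39 in 32 genes at 140 to 150 Mb of chromosome 1, of which 30 were higher in HepG2-labelled cells, and 1.39 in 28 genes at 50 to 60 Mb of chromosome 20, of which 25 were. The chromosome 1 window holds TXNIP (47.9 ± 38.8 against 0.00149 ± 0.0142 TPM) and copies of histone genes, some with identical values in pairs. The chromosome 20 window holds TFAP2C, PARD6B (136.5 ± 65.01 against 8.85 ± 7.11 TPM), ZNF217 (30.02 ± 19.5 against 2.94 ± 3.38 TPM) and BCAS1 (46.8 ± 97.8 against 0.113 ± 0.53 TPM). The lowest were -1.21 in 40 genes at 30 to 40 Mb of chromosome 17, of which 36 were higher in HCT-116, and -1.04 at 0 to 10 Mb of chromosome 19, where 91 genes were higher in HCT-116 and 14 in HepG2-labelled cells. The latter window holds GAMT, which makes creatine (104.3 ± 43.5 against 4.78 ± 5.67 TPM), and the splicing factor XAB2 (27.1 ± 12.6 against 2.47 ± 1.49 TPM). In fixed cells these 4 medians were 1.82, 1.73, -0.94 and -0.79, and with ribosomal RNA left out 1.36, 1.24, -1.41 and -1.21. Copy number was not measured here.

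Some pairs of genes followed each other from cell to cell, within and outside a family. Over 67 HepG2-labelled cells, AGR2 and AGR3 had a Pearson r of 0.73 and a Spearman rho of 0.79 on log2(TPM + 1), TFF1 and TFF3 had 0.68 and 0.60, and TFF1 and S100P, which are not of 1 family, had 0.62 and 0.55. Over 91 HCT-116 cells, EREG and AREG, neighbours on chromosome 4, had 0.69 and 0.62. These pairs were chosen after the values were seen, the cells of a line share its libraries' depth and batch, and the coefficients are descriptions.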
